A study of Mus musculus with 18 samples.

Results

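Mouse 3T3-L1 cells that carried a control siRNA (siCtrl) were set beside 3T3-L1 cells taken at 5 stages of fat cell differentiation, using lists of m6A peaks. The comparison used 7 of the 9 peak lists of the series, 2 from siCtrl cells and 1 each from days -2, 0, 2, 5 and 10. Peaks of these 7 lists that shared at least 1 base were merged into regions, which gave 56035 regions on 11705 genes, against 67750 regions over all 9 lists. Each list came from an immunoprecipitated library and its input library, so 14 of the 18 samples stood behind the comparison. The other 2 lists came from siFTO cells and entered only as a check on regions found in siCtrl cells.

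3T3-L1 is an established mouse embryo fibroblast line that stores fat after hormonal induction, and the labels call all samples pre-adipocytes. The stage cells are labelled by day alone, with no siRNA named, and day 0 is conventionally the day on which induction begins. The siCtrl samples have no day in the labels: replicate 1 is described as control and replicate 2 as normal cells, and the RNA could come from any time. Nothing says that the siCtrl replicates came from separate cultures, so the spread between them may be technical. Each stage had 1 list and therefore no spread of its own, and no p-value could be computed for any comparison below.

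N6-methyladenosine (m6A) is a methyl group on adenosines inside messenger RNA. The METTL3 and METTL14 complex writes it, FTO and ALKBH5 can remove it, and YTH domain proteins bind it and change the stability or translation of the transcript. In m6A-seq, fragments bound by an m6A antibody are compared with the input RNA, and a stretch enriched over the input is called a peak. A gene enters a list only if its transcript is both present and enriched, so fewer cells of a type, less RNA per cell and less methylation cannot be told apart in these bulk samples.

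The siCtrl lists held 35979 and 39133 peaks, within the range of 26485 on day -2 to 44529 on day 10. On day -2 a gene with peaks had 3.02 of them on average, against 4.13 and 4.31 in siCtrl and between 4.30 and 4.84 on days 0 to 10. The day -2 list stood apart from the other stages. Its Jaccard index with them, the number of shared regions divided by the number of regions in either list, was between 0.250 and 0.273, while days 0 to 10 shared 0.659 to 0.738 with each other. Read depth is unknown, and its part in differences of peak number was not tested. Of all 11705 genes, between 74.4% and 80.3% had a peak in a given list. Markers of other cell types were sparse in siCtrl, with peaks on 0 of 7 endothelial genes, 2 and 3 of 8 macrophage genes, 2 and 2 of 9 muscle genes and 2 and 2 of 9 bone and cartilage genes. The defining genes Ptprc, Adgre1, Cd68, Myod1, Myog, Sp7 and Col2a1 had none. Those with peaks were Cd14 (2 and 2), Aif1 (1 and 2), Csf1r (0 and 1), Des (2 and 3), Tnnt3 (2 and 3), Runx2 (9 and 8) and Sox9 (8 and 7). The bone and cartilage list had 14 to 19 peaks at the stages, against 17 and 15 in siCtrl.

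No single stage was nearest to the siCtrl cells by every measure. Taken over regions, the siCtrl lists shared most with day 5, day 10 and day 0 and least with day -2, and the means of the first 3 differed by less than their SD. With day 5 the Jaccard index was 0.544 for siCtrl replicate 1 and 0.516 for replicate 2, a mean of 0.530 ± 0.020 (SD, n = 2). With day 10 it was 0.536 and 0.514, a mean of 0.525 ± 0.016 (SD, n = 2). With day 0 it was 0.536 and 0.493, a mean of 0.514 ± 0.030 (SD, n = 2). The gaps between these 3 means are smaller than the SD of any of them, which reflects the difference between the siCtrl lists. Replicate 1 was higher than replicate 2 with every stage, so this SD holds a shift common to the stages. Within each siCtrl list the order was day 5, day 10, day 0, with days 10 and 0 nearly equal in replicate 1. Day 2 gave 0.496 and 0.460, below days 0, 5 and 10 in each replicate, though the values of the replicates overlapped those of day 0. Day -2 gave 0.335 and 0.332, below every value of the other stages. The siCtrl lists shared 0.812 with each other, more than any siCtrl list shared with any stage.

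Counting genes in place of regions gave the same order of the extremes. The gene Jaccard index was 0.793 ± 0.007 with day 5, 0.791 ± 0.001 with day 10 and 0.783 ± 0.011 with day 0 (SD, n = 2). It was 0.767 ± 0.007 with day 2 and 0.684 ± 0.007 with day -2 (SD, n = 2). Replicate 1 was nearest to day 5 and replicate 2 to day 10, and the means of days 5 and 10 lay above that of day 0 by less than the SD of day 0. Longer lists can catch more siCtrl regions, and the direction of counting changed the leading stage. Day 10 held 74.8% ± 4.05 of the siCtrl regions and day 0 66.8% ± 4.66, whereas the siCtrl lists held 69.1% ± 0.368 of the day 0 regions and 63.9% ± 0.662 of the day 10 regions (SD, n = 2). When each list was cut to the length of the shortest, keeping the peaks of highest fold, the mean was highest with day 0, at 0.396 for regions and 0.673 for genes. By regions, days 5 and 10 followed at 0.392 each, within the SD of 0.030 for day 0, and replicate 2 stayed nearest to day 5. The cut changed fold as well as length, so the part of length alone was not tested. The leading day thus varied with the setting. Day -2 was last by regions and by genes in both replicates under each of the planned settings.

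**Figure D1:**
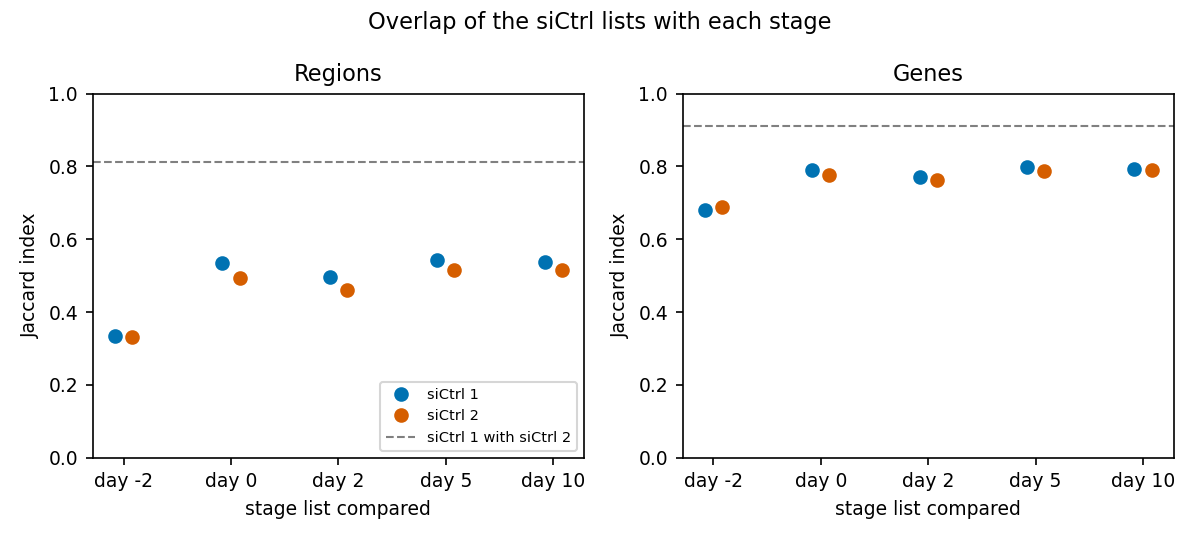
Jaccard index (vertical axis, from 0 to 1) of each siCtrl list with each stage list, by regions on the left and by genes on the right, with 1 point per siCtrl replicate and a dashed line for the index between the siCtrl lists. By regions, days 0, 5 and 10 lie between 0.493 and 0.544, day -2 lies near 0.333, and the dashed line is at 0.812.

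A second measure, the rank correlation of the number of peaks per gene over 11705 genes, is given as a description, because the genes share libraries and transcript length. Spearman's rho was 0.778 with day 0, 0.761 with day 5, 0.748 with day 10, 0.728 with day 2 and 0.621 with day -2 (means of the siCtrl lists). The siCtrl lists had a rho of 0.944 with each other. Over the 8522 regions in all 7 lists, the rank of the authors' fold had a rho of 0.577 with day 0 and 0.580 with day 5.

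The siCtrl cells were closest to the day -2 list from the other side. The Jaccard index of the day -2 list was 0.335 and 0.332 with siCtrl and at most 0.273 with any other stage, so the siCtrl lists were its nearest neighbours among the 7 lists.

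Genes of mature fat cells placed the siCtrl cells with the early stages. Of 41 genes for lipid storage, lipid synthesis and adipokines, 30 had a peak in at least 1 of the 7 lists. In siCtrl, 19 and 18 of these had a peak, against 20, 17, 27, 29 and 25 on days -2, 0, 2, 5 and 10. Their peaks numbered 108 and 110 in siCtrl, between the 93 of day 0 and the 187 of day 2. Per 1000 peaks of a list, they took 3.00 and 2.81 in siCtrl, 2.11 and 2.48 on days -2 and 0, and 4.69, 6.40 and 5.34 on days 2, 5 and 10. By number of peaks, both siCtrl lists thus lay nearer to day 0 than to days 2, 5 and 10. Fabp5, Plin1, Plin2, Adipoq, Cidec, G0s2, Cfd, Retn and Adrb3 had peaks on days 2 to 10 alone. They entered the 30 through those days, so their absence from siCtrl, day -2 and day 0 was fixed by that choice.

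Several genes best known from fat cells had no peak in siCtrl. Plin1, which coats the lipid droplet and guards it from lipases, had 0 peaks in both siCtrl lists, on day -2 and on day 0, and 13, 18 and 16 on days 2, 5 and 10. Adipoq, the hormone adiponectin, had 0 in the same 4 lists and then 3, 7 and 9. Cfd, the secreted protease adipsin, had 0 in the same 4 lists and then 2, 6 and 6. In these genes siCtrl and day 0 were alike at 0 and the 3 later stages were all above them. Retn, the hormone resistin, had 5 peaks on day 5, 6 on day 10 and 0 in the other 5 lists. Fabp4, the fatty acid carrier of adipocytes, had 0 in siCtrl, 1 on day -2, 0 on day 0, and 2, 7 and 6 afterwards. Fabp4, Plin1, Adipoq, Cidec, Dgat2, Cfd, Retn and Adrb3 made up the 8 of 30 genes that both days 5 and 10 held and neither siCtrl list did, a pattern of 6.56% of all genes. Klf15, a transcription factor of late adipogenesis, followed them with 4 and 2 peaks on days 5 and 10 and 0 elsewhere.

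Genes for handling fatty acids that many cells use were present in siCtrl with few peaks. Pnpla2, the lipase that opens triglyceride breakdown, had 1 and 1 peaks in siCtrl, 0 on day -2, 1 on day 0, and 9, 12 and 10 on days 2, 5 and 10. Acsl1, which couples fatty acids to coenzyme A, had 3 and 3 in siCtrl, 1 on each of days -2 and 0, and 16, 26 and 18 afterwards. Pcx, the mitochondrial pyruvate carboxylase, had 5 and 5 in siCtrl, 2 and 5 on days -2 and 0, and 21, 26 and 19 afterwards. In all of these the siCtrl values met or slightly exceeded day 0 and lay far below days 2 to 10. Lipe, hormone-sensitive lipase, had 5 and 6 in siCtrl against 2 on day 0 and 10, 20 and 13 later, so siCtrl lay between. Plin4, another coat protein of lipid droplets, had 21 and 20 in siCtrl and 12, 19, 21, 28 and 25 along the stages, and Lpl, the lipase that takes up fat from lipoproteins, had 3 and 3 in siCtrl and 4, 3, 7, 2 and 2.

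Gene by gene, 10 of the 30 had more peaks in both siCtrl lists than on day 0 and 2 had fewer, where 26.5% and 28.5% of all genes did. Fasn, the fatty acid synthase, was among the 10, with 10 and 9 peaks in siCtrl and 3, 5, 7, 21 and 19 along the stages. Against day 5, 5 of the 30 had more and 21 had fewer, where 20.6% and 36.3% of all genes did. Against day 2, 7 had more and 17 had fewer, where 24.9% and 35% of all genes did, and against day 10, 5 had more and 19 had fewer, where 18.7% and 40.7% did. The median difference, siCtrl minus stage, was 0 peaks for day 0, -1.75 for day 2, -4.5 for day 5 and -2.75 for day 10, and it was 0 over all genes for each of these days. Members that entered the 30 through days 2 to 10 alone could count only as fewer or equal in siCtrl. A few lipid synthesis genes went the other way. Elovl6, which lengthens fatty acids, had 5 and 6 peaks in siCtrl and 1, 1, 1, 1 and 0 along the stages. Acaca, the first enzyme of fatty acid synthesis, had 7 and 5 in siCtrl and 5, 4, 4, 4 and 3 along the stages. Elovl6, named after its values were seen, was above every stage in both replicates, and Acaca was above days 0 to 10.

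**Figure D2:**
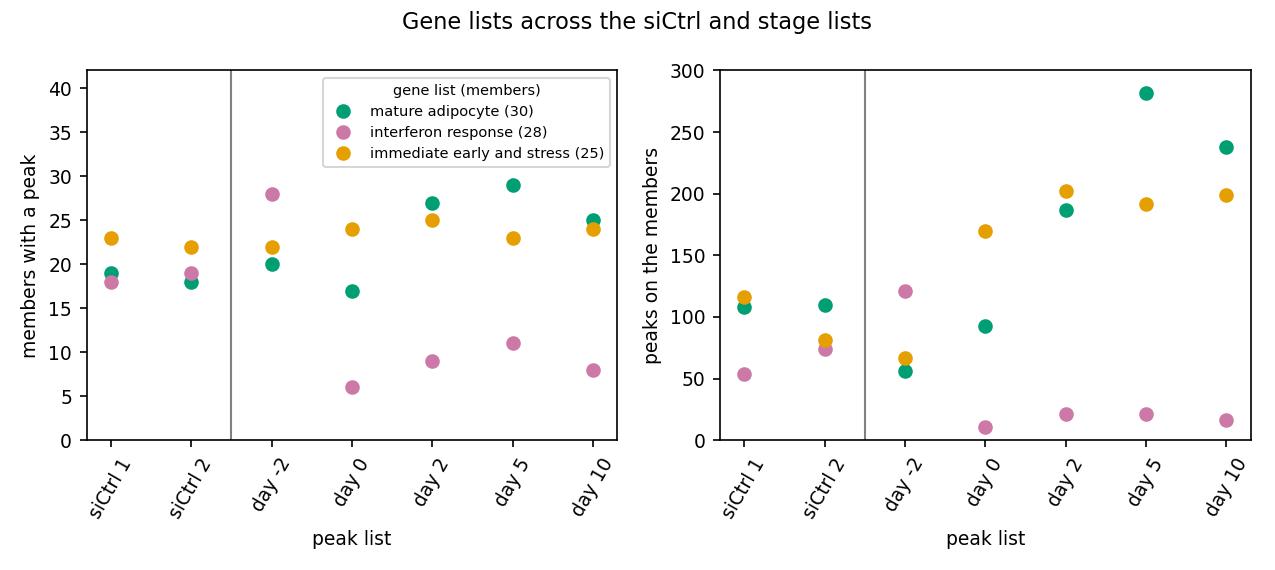
Number of list members with a peak (left) and number of peaks on them (right) in each of the 7 lists, for mature adipocyte, interferon response and immediate early and stress genes, 1 point per list, with siCtrl left of the grey line. Adipocyte genes have 108 and 110 peaks in siCtrl and 282 on day 5, and interferon response genes have peaks on 18 and 19 members in siCtrl, 28 on day -2 and 6 to 11 on days 0 to 10.

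The transcription factors that drive the program also had fewer peaks in siCtrl than on day 5, though some members differed little. Against day 5, 1 of the 13 measured terminal factors had more peaks in both siCtrl lists and 11 had fewer. Of the 16 measured induction factors, 1 had more and 12 had fewer, where 20.6% and 36.3% of all genes did. Against day -2, 8 terminal and 10 induction factors had more, and 2 and 1 had fewer, where 42.8% and 24% of all genes did. Cebpb, which acts first after induction, had 6 and 5 peaks in siCtrl, 2 on day -2, and 7, 7, 6 and 7 on days 0 to 10. Cebpd, its partner, had 5 and 4 in siCtrl, 1 on day -2, and 5, 6, 6 and 6 on days 0 to 10. Both factors had more peaks in siCtrl than on day -2, and siCtrl lay at or just under the lowest of the other stages. Cebpa, which maintains the mature state, had 7 and 8 in siCtrl, 2 on day -2, and 8, 9, 10 and 8 later. Pparg, the master regulator of fat cell genes, had 3 and 2 in siCtrl and 3, 2, 2, 6 and 4 along the stages, so siCtrl was as low as the first 3 stages. Srebf1, which switches on lipid synthesis genes, had 2 and 1 in siCtrl, 2 and 3 on days -2 and 0, and 7, 14 and 13 later. Esrra, a receptor that controls mitochondrial genes, had 3 and 5 in siCtrl, 0 and 5 on days -2 and 0, and 11 on each later stage. All 13 measured terminal transcription factors had a peak in both siCtrl lists, against 10 on day -2 and 12 on each later stage, where 72.5% of all genes had a peak in both siCtrl lists. Ppargc1a, the coactivator of mitochondrial and thermogenic genes, was the member missing from days 0 to 10. It had 5 and 3 peaks in siCtrl and 0 at every stage, and it was named after its values were seen. Ppargc1a was among the 13 only through the siCtrl lists, so its place in these counts was fixed by that choice.

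Preadipocyte genes gave no single place either. Of 15 measured preadipocyte and mesenchymal markers, 8 had more peaks in both siCtrl lists than on day -2 and 1 had fewer. Of 20 measured inhibitors of adipogenesis, 12 had more and 2 had fewer, where 42.8% and 24% of all genes did. Pdgfra, a receptor that marks fat cell precursors, had 15 and 16 peaks in siCtrl, 12 on day -2 and 14 or 15 on days 0 to 10. Dlk1, the preadipocyte protein Pref-1 that holds back differentiation, had 1 and 3 in siCtrl and 2 on day -2, and 13, 12, 12 and 16 on days 0 to 10. For Dlk1 the siCtrl cells thus lay with day -2, below each later stage. Hes1, the Notch target and repressor, had 1 and 0 in siCtrl, 0 on day -2, and 6, 9, 8 and 8 later. Egr2, an early inducer of C/EBP-beta, had 0 in siCtrl and on day -2, and 5, 6, 3 and 8 later. Runx1t1, an inhibitor of adipogenesis, had 7 and 8 in siCtrl and 8, 5, 2, 4 and 3 along the stages, again nearest to day -2. Notch1, of the same list, went the other way, with 14 and 13 in siCtrl, 2 on day -2, and 18, 18, 16 and 12 later. Fto itself, the demethylase that the parallel siRNA targets, had 6 and 6 in siCtrl, 0 on day -2, and 5, 4, 4 and 6 later.

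Interferon response genes were shared by siCtrl and day -2. These genes are switched on when interferon or viral RNA is sensed, through transcription factors that bind a promoter element with repeated GAAA. Of 32 genes in the list, 28 had a peak in at least 1 of the 7 lists. All 28 had one on day -2, 18 and 19 in siCtrl, and 6, 9, 11 and 8 on days 0, 2, 5 and 10. They carried 121 peaks on day -2, 54 and 74 in siCtrl, and 11, 21, 21 and 16 on days 0 to 10. Both siCtrl lists were above every list of days 0 to 10 and below day -2. Per 1000 peaks of the list, this was 4.57 on day -2, 1.50 and 1.89 in siCtrl and at most 0.527 later. Some of the 28 had peaks on day -2 alone and entered the count through that list, so their place there was fixed.

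Of the 28 genes, 11 had more peaks in both siCtrl lists than on each of days 0 to 10 and 0 had fewer, where 11.4% and 17.8% of all genes did. Ifit3, which binds foreign RNA together with its relatives, had 4 and 5 peaks in siCtrl, 7 on day -2 and 0 on days 0, 2, 5 and 10. Mx1, a GTPase that blocks viruses, had 4 and 5 in siCtrl, 7 on day -2 and 0 later. In both genes the siCtrl lists and day -2 were alike in holding peaks and the other 4 lists held none. The highest peak of Ifit3 in siCtrl was at chr19:34588414-34588550 (mm10). Parp14, an ADP-ribosyl transferase, had 7 and 10 in siCtrl, 11 on day -2, 1 on day 5 and 0 on days 0, 2 and 10. Parp9, of the same enzyme family, had 5 and 6 in siCtrl, 4 on day -2, 2 on day 5 and 0 on days 0, 2 and 10. Ifit1, Ifit3, Isg15, Oasl2 and Mx1 were the 5 genes that both siCtrl lists and no list of days 0 to 10 held, a pattern of 2.83% of all genes.

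The siCtrl lists did not reach day -2. Against day -2, 22 of the 28 genes had fewer peaks in both siCtrl lists and 2 had more, where 24% and 42.8% of all genes did. Stat2, which carries the interferon signal, had 3 and 3 in siCtrl and 10 on day -2. Oas1a, Oas2, Rsad2, Irf7, Usp18, Ccl5, Ifi44 and Tlr3 had between 1 and 2 peaks on day -2 and 0 in siCtrl and on days 0 to 10. They were among the 28 only through day -2, so their part in the 22 was fixed by that choice. Stat2 and these 8 genes were named after their values were seen. Both siFTO lists, from cells that also received an siRNA, held peaks on 19 and 19 members. When only peaks at or above the median fold of their list were kept, 6 genes in place of 11 were above each of days 0 to 10.

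The promoters of the genes above are shown because these genes moved together across the lists. Of the 32 interferon response genes, 23 had a promoter window in RefSeq (GRCm38.p6, the build called mm10), and 8 of these held GAAANNGAAA on either strand within 250 bases before the start. Counted by windows, this was 8 of 28, or 28.6%, against 2.98% of all 32851 windows. The same letters were in 0 of the 40 windows of the 30 adipocyte list genes with a window. The 8 were Bst2, Cxcl10, Ifit1, Ifit3, Isg15, Oas1a, Rsad2 and Stat2, which include genes with peaks in siCtrl and genes without. A match is a description of letters, not a site. Each line gives the 250 bases before the start, 5′ to 3′ on the gene's strand, with the matches in capitals.
Ifit1, chr19:34640639-34640888, plus strand: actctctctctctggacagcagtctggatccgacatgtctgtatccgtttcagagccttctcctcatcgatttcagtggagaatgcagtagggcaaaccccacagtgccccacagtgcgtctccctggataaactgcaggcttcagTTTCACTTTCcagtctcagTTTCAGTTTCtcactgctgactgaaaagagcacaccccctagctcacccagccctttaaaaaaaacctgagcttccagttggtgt
Ifit3, chr19:34583279-34583528, plus strand: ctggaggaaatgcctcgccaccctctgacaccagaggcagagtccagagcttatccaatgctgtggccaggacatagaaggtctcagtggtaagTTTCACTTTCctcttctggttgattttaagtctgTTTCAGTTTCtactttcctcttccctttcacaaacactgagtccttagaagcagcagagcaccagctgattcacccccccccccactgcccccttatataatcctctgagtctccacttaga
Isg15, chr4:156200819-156201068, minus strand: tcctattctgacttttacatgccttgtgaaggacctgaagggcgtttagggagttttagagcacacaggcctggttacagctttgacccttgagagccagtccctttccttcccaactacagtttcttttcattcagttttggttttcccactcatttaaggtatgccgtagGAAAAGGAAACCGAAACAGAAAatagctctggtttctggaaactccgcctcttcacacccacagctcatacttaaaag

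Ifit1 and Ifit3 each held 2 matches with the same letters, TTTCACTTTC and TTTCAGTTTC, whose first bases lay 104 and 85 bases before the start in Ifit1 and 156 and 122 in Ifit3. Isg15, a ubiquitin-like protein, held 3 matches that overlap and read on in 1 run. Its peaks numbered 2 and 2 in siCtrl, 4 on day -2 and 0 later. The window of Oasl2 held none, although Oasl2 had 3 and 4 peaks in siCtrl, 7 on day -2 and 0 later.

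For contrast, the promoter of Plin1 is shown with TTGCNNAA in capitals, letters of the kind that C/EBP factors bind. They were in 9.56% of all windows and in 4 of the 40 windows, or 10%, of adipocyte list genes, so the share was near that of all windows. The genes with a match were 4 of the 30 with a window, Cidec, Lep, Plin1 and Rbp4.
Plin1, chr7:79732777-79733026, minus strand: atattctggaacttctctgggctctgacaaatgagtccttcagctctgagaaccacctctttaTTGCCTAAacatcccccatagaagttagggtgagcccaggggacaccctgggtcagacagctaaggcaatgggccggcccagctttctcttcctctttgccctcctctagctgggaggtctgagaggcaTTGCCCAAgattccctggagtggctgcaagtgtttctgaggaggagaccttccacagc

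Immediate early genes, which respond within minutes to serum, growth factors or handling, also set siCtrl and day -2 apart from the later stages. All 25 genes of the list had a peak in at least 1 of the 7 lists. They carried 116 and 81 peaks in siCtrl, 67 on day -2, and 170, 202, 192 and 199 on days 0, 2, 5 and 10. Of the 25, 10 had fewer peaks in both siCtrl lists than on each of days 0 to 10 and 1, the chaperone Hspa5, had more, where 17.8% and 11.4% of all genes did. Nr4a1, an orphan nuclear receptor, had 8 and 2 peaks in siCtrl, 1 on day -2, and 18, 24, 25 and 25 later. Egr1, a zinc finger factor, had 8 and 3 in siCtrl, 3 on day -2, and 16, 14, 16 and 16 later. Fosb, a subunit of AP-1, had 8 and 5 in siCtrl, 6 on day -2, and 12, 16, 16 and 18 later. In each of these the siCtrl lists lay below every list of days 0 to 10, and replicate 2, the longer list, had fewer peaks than replicate 1. With adjoining peaks joined, 5 genes in place of 10 were below each of days 0 to 10, and without siCtrl replicate 1 there were 16.

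**Figure D3:**
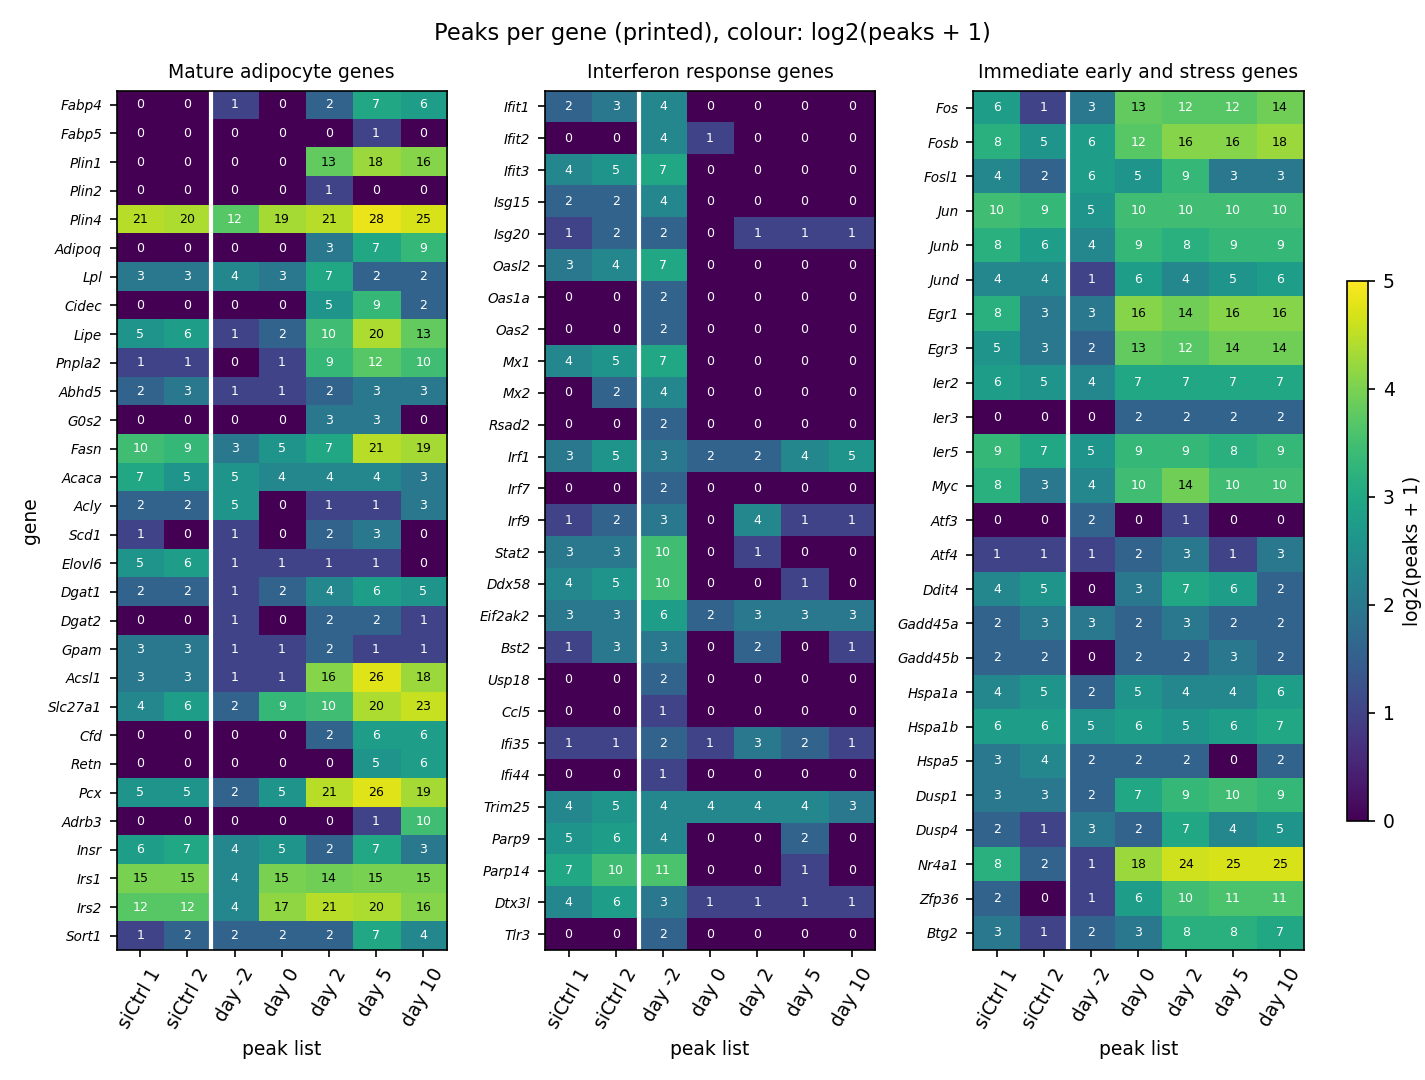
Peaks per gene, printed in each cell and coloured as log2(peaks + 1), for measured members of 3 gene lists (rows, without 1 interferon response gene) in the 7 peak lists (columns), with siCtrl left of the white line. Plin1, Adipoq, Cfd and Retn are at 0 in siCtrl, Ifit3 and Mx1 have 4 and 5 peaks in siCtrl and 0 on days 0 to 10, and Nr4a1 has 8 and 2 in siCtrl against 18 to 25 on days 0 to 10.

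Growth genes had fewer peaks in siCtrl than on day 5, and against day 0 their split was near that of all genes. Of 38 cell cycle and replication genes, 32 were measured, with peaks on 24 and 24 in siCtrl, 24 on each of days -2 and 0, and 28 or 29 later, so the siCtrl share was near that of all genes. Against day 5, 2 of the 32 had more peaks in both siCtrl lists and 17 had fewer, where 20.6% and 36.3% of all genes did. Against day 0, 9 had more and 8 had fewer, where 26.5% and 28.5% of all genes did. Mki67, a marker of dividing cells, had 17 and 14 peaks in siCtrl, 18 on day -2, 5 on day 0, and 9, 19 and 10 later. Top2a, the topoisomerase of dividing cells, had 7 and 6 in siCtrl, 10 on day -2, 0 on day 0, and 2, 6 and 1 later. For both, siCtrl was above days 0, 2 and 10 and below day -2. Mcm5, part of the replicative helicase, had 0 in siCtrl and on days -2 and 0, and 4 on each later stage.

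Over all peaks, the place of peaks along the transcript put siCtrl near days 5 and 10. The 5′ UTR held 11.9% and 11.2% of the siCtrl peaks, against 5.90% on day -2 and 14.0%, 13.3%, 11.9% and 12.5% on days 0, 2, 5 and 10. The difference between siCtrl and day 5 was -0.379 percentage points, smaller than the SD of 0.468 (n = 2). It grew to -1.99 points with peaks at or above the median fold of their list and to -2.04 points at equal list lengths, both beyond the SD. Introns held 11.1% and 11.7% in siCtrl, against 13.1% to 14.5% on days 0 to 10 and 21.4% on day -2. The 3′ UTR held 13.3% and 13.7% in siCtrl and 11.0% to 11.6% at all 5 stages. Intron peaks were thus rarer and 3′ UTR peaks more frequent in both siCtrl lists than at any stage, and the exact 95% intervals of these shares, which cover counting error only, did not overlap those of a stage. The absolute differences in the shares of all parts summed to 5.14 points for day 5, 5.29 for day 10, 9.57 for day 2, 11.2 for day 0 and 20.1 for day -2. Only 7.26% of day -2 peaks started where the previous peak of the gene ended, against 22.9% and 23.3% in siCtrl and 24.2% to 25.8% on days 0 to 10.

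**Figure D4:**
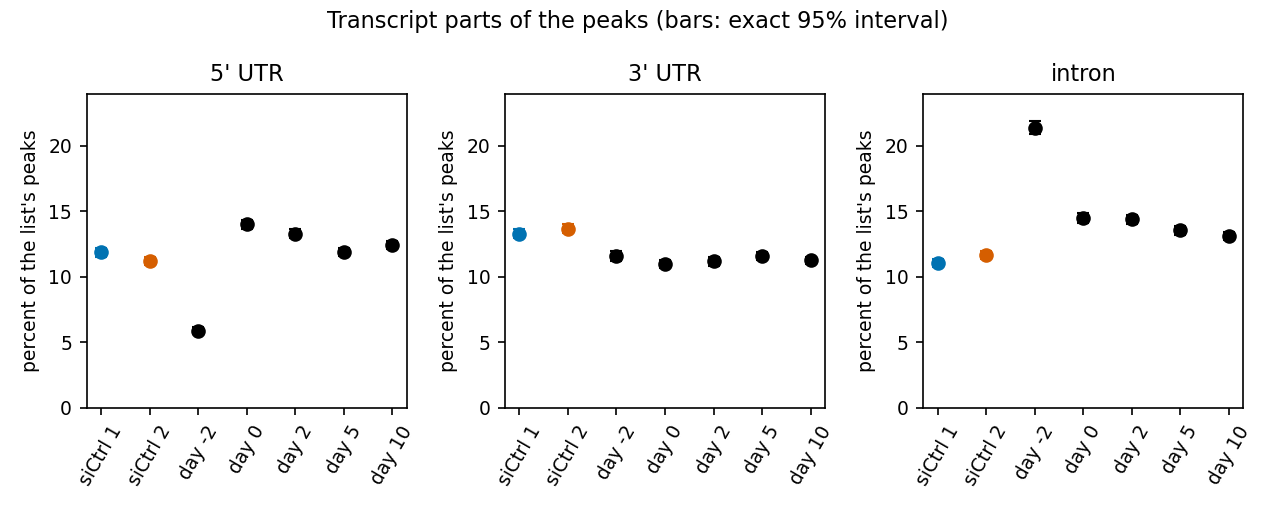
Percent of each list's peaks in the 5′ UTR, 3′ UTR and intron (vertical axis) for the siCtrl lists (coloured) and the 5 stages (black), with exact 95% intervals that cover counting error only. Day -2 is apart at 5.90% in the 5′ UTR and 21.4% in introns, and siCtrl is highest in the 3′ UTR and lowest in introns.

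Regions were then sorted by which stages held them. The siCtrl lists did not set these patterns, but their peaks took part in the merging and may have joined separate stage peaks. Of 9180 regions in all 5 stages, both siCtrl lists held 8522, or 92.8% (exact 95% interval 92.3 to 93.4). Of 11552 regions in days 0, 2, 5 and 10 but not day -2, they held 59.9%. Of regions found at a single stage they held far fewer: 20.1% of 2291 for day 5, 15.3% of 1083 for day 0, 14.7% of 2049 for day 10, 12.6% of 10294 for day -2 and 6.12% of 1962 for day 2. The day 2 share lay below the interval of every other single stage and the day 5 share above it. By number, regions from day -2 alone were the most, with 1294 in both siCtrl lists. Both siFTO lists held 77.0% of these, against 59.9% of all 24981 regions in both siCtrl lists and 86.5% of the 8522. The siFTO lists were nearer to day -2 than to siCtrl in their shares of 5′ UTR peaks (4.33% and 5.01%) and intron peaks (19.5% and 17.1%). Any part of this likeness in the 77.0% was not tested. The best of the 1294 by fold lay in the coding sequence of Tpr, a protein of the nuclear pore basket, at chr1:150403851-150404050, with a fold of 78.35 and 94.29 in siCtrl and 343.61 on day -2.

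Genes restricted to late stages were not favoured in siCtrl over genes restricted to early stages. Both siCtrl lists held 85 of 314 genes found on days 5 and 10 and on neither day -2 nor day 0, which is 27.1% (exact 95% interval 22.2 to 32.3). They held 36 of 102 genes found on days -2 and 0 and on no later day, which is 35.3% (26.1 to 45.4). The intervals overlap, and both shares lay below the 73.0% of all genes with a peak at any stage. The best of the late genes in siCtrl by fold were Syngr4, Lag3, Rfx2, Ppip5k1 and Sec1, with 1 to 3 peaks in each siCtrl list, and none of these 5 is in the adipocyte list. Late genes absent from siCtrl included Card14, a scaffold of inflammatory signalling, with 1, 9 and 8 peaks on days 2, 5 and 10, and Cdkn1c, a brake on the cell cycle, with 1, 1 and 2. Early genes held by siCtrl included Abca8b, a transporter with 2 and 3 peaks in siCtrl, 6 on day -2 and 1 on day 0, and Sp100, a nuclear body protein, with 1 and 1, 5 and 1. Ifit2, an interferon response gene with 4 peaks on day -2 and 1 on day 0, was absent from both siCtrl lists.

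**Figure D5:**
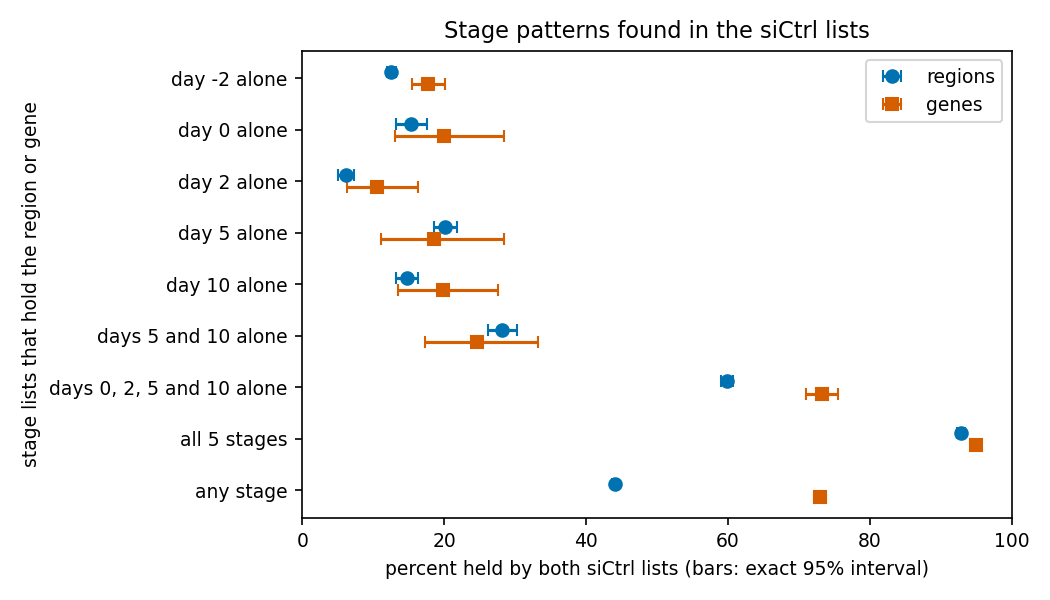
Percent of regions (circles) and genes (squares) held by both siCtrl lists (horizontal axis), by the stages that hold them (vertical axis), with exact 95% intervals that cover counting error only. Regions of all 5 stages are held at 92.8%, and regions of a single stage at 6.12% to 20.1%.

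The siCtrl lists also held regions of their own. Both siCtrl lists held 2256 regions that no stage did, 4.03% of the 56035, on 1626 genes. By the same count, pairs of stage lists alone held 111 (days -2 and 2) to 1236 (days 5 and 10) regions. The siCtrl lists are replicates of the same condition, whereas each stage pair joins different days, so these counts are not like for like. Of the 2256, 92.7% lay on genes with a peak at some stage, as did 11428 of all 11705 genes. Only 1.91% touched the end of a stage peak. The 3′ UTR share of the 2256 was 22.1%, against 13.7% for all regions in both siCtrl lists, and their 5′ UTR share was 4.52% against 11.9%. Both siFTO lists held 41.9% of them and neither held 36.2%, against 59.9% and 27.8% of all regions in both siCtrl lists. Without siCtrl replicate 1 the count was 4218, and without the day -2 list it was 3550.

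Some long transcripts held many of these regions. Ahnak, a giant scaffold protein under the membrane, had 18 of them, with 70 and 75 peaks in siCtrl and 30, 19, 10, 23 and 22 along the stages. Vcan, the matrix proteoglycan versican, had 11, with 22 and 25 peaks in siCtrl and 7, 8, 5, 11 and 9 along the stages. Col3a1, a fibrillar collagen, had 8, with 34 and 33 in siCtrl and 19, 19, 7, 11 and 11 along the stages. In all of these both siCtrl lists were above the highest stage, and for Col3a1 the nearest were days -2 and 0. Other genes whose lower siCtrl list exceeded every stage by at least 9 peaks were Prune2, Stard9, Fat1, Dync1h1, Plec, Pde4dip and Zfp41. The list of matrix genes was mixed: of 22 measured, Col3a1 among them, 9 had more and 9 had fewer peaks in both siCtrl lists than on day 0, where 26.5% and 28.5% of all genes did. Rnf213, a large ubiquitin ligase named after its values were seen, had 29 and 34 peaks in siCtrl, 32 on day -2, and 2, 3, 3 and 0 later.

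By fold, the first of the regions without a stage lay in the coding sequence of Rlf, a zinc finger protein, at chr4:121150651-121150925, with a fold of 117.53 and 125.04. The next lay on the pseudogene Rpl19-ps11, with 111 and 104.54. Casp8ap2, a protein needed for histone transcripts, came after it at chr4:32639401-32639550 with 58.76 and 64.91. Zfyve9, which brings SMAD proteins to the TGF-beta receptor, had one at chr4:108718351-108718475 with 59.7 and 59.45. Rlf, Casp8ap2 and Zfyve9 each had other peaks at 1 or more stages. The values are the authors' folds, used here to order peaks within a list.

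At the level of genes, 140 were in both siCtrl lists and at no stage, 1.2% of the 11705. Of these, 87 had 1 peak in each siCtrl list, and both siFTO lists held 82. Among the 10 best by fold, Ivl, involucrin of the skin barrier, had 4 peaks in each siCtrl list, with 4 and 6 in siFTO. Draxin, a secreted guidance protein of axons, had 3 and 3, and Ift74, part of the transport system of cilia, had 2 and 2. Rpl19-ps11 and Rpl19-ps12, pseudogenes of a ribosomal protein, were also among them, but reads of near-identical copies may be split between them and their parent, so these are uncertain.

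In the other direction, 416 regions, 0.742% of all, were in all 5 stages and in neither siCtrl list, as were 174 genes, 1.49% of all. Pappa, a protease that frees insulin-like growth factors from their binding proteins, had 0 peaks in both siCtrl lists and 4, 5, 7, 7 and 5 along the stages. Camk2n1, an inhibitor of calcium and calmodulin-dependent kinase, had 0 in siCtrl and 2, 3, 3, 2 and 4. Braf, a kinase of the growth factor pathway, had 0 in siCtrl and 3, 2, 1, 2 and 1, but 7 and 3 in siFTO. Eef2k, the kinase that slows elongation, had 4 and 4 in siCtrl and 9, 8, 9, 10 and 8 along the stages, and Hsp90ab1, a chaperone, had 2 and 2 against 5, 5, 5, 5 and 7. In these genes the siCtrl lists lay below the lowest stage. Of the 174 genes, 106 were in both siFTO lists.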

How the data were processed

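Poly(A) RNA of 3T3-L1 cells was depleted of ribosomal RNA, fragmented and bound with an m6A antibody, per the labels' protocols. The submitters' processing notes name TopHat2 2.0.9, bedtools and the build mm10. For the peak caller and its scaling for depth, a name or setting was not given in the sources used here. Peaks were deposited for each sample pair, not on pooled samples. The deposited value is an enrichment per peak, read as a fold (ratio) of immunoprecipitate over input, since the file headers give no formula. It ranks peaks within a list.

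Lines of mitochondrial genes, marked as encoded, have shifted cells and were dropped: 2 in each siCtrl list and 21 on day -2. Peaks of 7 lists were merged where they share at least 1 base, without joining peaks that merely adjoin. Coordinates count from 1. Gene IDs are as deposited, and 11580 of 11705 had a symbol. A gene was above or below a stage when both siCtrl lists had more or fewer peaks. Of the siCtrl peaks, 17581 had the same position in both replicates but 168 the same fold, so the replicates counted as 2 samples. Shares have exact Clopper-Pearson 95% intervals. Merging was tested on simulated data. Python 3.11.15, pandas 2.3.3, numpy 2.4.6 and scipy 1.17.1 were used.

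The members and gene lists were chosen with earlier results of these data known. Named genes are a list of stage genes, the 10 best by fold in siCtrl alone and in all stages but not siCtrl, the 10 furthest above or below every stage in peak number, the best regions of siCtrl alone or shared with day -2 or day 10 alone, 5 early and 5 late genes held by siCtrl and 5 of each held by neither, and up to 4 members of each list that differ most from the stages. Other genes are named as members of a count or after their values were seen. Of the interferon list, 1 gene is counted but not reported here. The comparison with each of days 0 to 10 together was chosen after seeing the data. Of the stage genes, Cd36, Slc2a4 and Lep had no peak in the 7 lists.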

Additional observations from a re-analysis of the deposited data

Results flagged for a closer look

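Lines of mitochondrial genes, which were set aside because their cells are shifted and they hold no usable fold, were more frequent in some lists than in siCtrl. The day -2 list held 21 such lines and the siFTO lists held 12 and 13, against 2 and 2 in the siCtrl lists and 0 on each of days 0, 2, 5 and 10. The siCtrl cells were thus nearer to days 0 to 10 in this respect than to day -2. Their part in the other results was not tested.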

How the results depend on the processing

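No paired analysis was possible because each stage has 1 list and shares no replicate number with siCtrl. With peaks at or above the median fold, the highest siCtrl mean was 0.343 for regions and 0.582 for genes (day 5), genes in siCtrl alone numbered 238 against 140, regions in all stages but not siCtrl numbered 176 against 416, the 5′ UTR difference from day 5 was -1.99 points and 6 interferon genes in place of 11 were above days 0 to 10. With equal list lengths the highest mean was 0.396 and 0.673 (day 0), genes in all stages but not siCtrl numbered 307 against 174, the 5′ UTR difference was -2.04 points, and the shares held were 43.1% of early and 23.2% of late genes. With exonic peaks only, the gene index was 0.784 (day 5), and the shares were 46.7% of early and 30.9% of late genes. With adjoining peaks joined, 5 immediate early genes in place of 10 were below days 0 to 10. The share of siCtrl regions held by a stage was at most 74.8% (day 10), and of stage regions held by siCtrl at most 69.1% (day 0).

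With either siCtrl replicate left out, regions in siCtrl alone ranged from 2567 to 4218 and genes from 161 to 256. Genes in all stages but not siCtrl ranged from 226 to 265, the early share from 39.2% to 40.2%, the late share from 32.5% to 36.9%, and immediate early genes below days 0 to 10 from 10 to 16. With each stage left out in turn, regions in siCtrl alone ranged from 2376 to 3550, the highest without day -2. Without day -2 the region index with day 5 was 0.530, an alternative chosen after seeing the data, as were those on interferon and immediate early genes. The other 57 values that answer a comparison kept within the spread of the siCtrl lists or 1.5 times of the count. Depth is unknown, so a gene without a peak may lie below detection.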

Other observations

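Genes of the small RNA silencing machinery, through which an siRNA acts, took 1.97 and 2.07 of every 1000 peaks in siCtrl and 1.26 to 1.74 at the stages, so both siCtrl lists lay above every stage. Of 11 measured members, 3 had more peaks in both siCtrl lists than on each of days 0 to 10 and 0 had fewer, where 11.4% and 17.8% of all genes did. These 3 were Ago2, Ago3 and Tnrc6c, and Tnrc6b and Tnrc6a were not among them. Any part of the siRNA in this was not tested. All 11 had a peak in both siCtrl lists and 10 had one at each stage. Tnrc6b, a scaffold that joins Argonaute to the deadenylases, had 11 and 14 peaks in siCtrl, 9 on day -2, 13 on day 5 and 3 on each of days 0, 2 and 10. Tnrc6a, its relative, had 9 and 9 in siCtrl and 5, 2, 7, 10 and 8 along the stages.

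Of the m6A machinery, 16 of 19 measured members had a peak in each siCtrl list and 16 to 18 at each stage, where 72.5% of all genes had a peak in both siCtrl lists. Virma, a writer subunit, had 4 and 4 peaks in siCtrl, 4 on day -2, and 0, 1, 2 and 2 later. Zc3h13, another writer subunit, had 13 and 14 in siCtrl, 14 on day -2, and 8, 8, 9 and 10 later. Alkbh5, an eraser, had 13 and 12 in siCtrl, 2 on day -2, and 10, 10, 12 and 12 later. Virma and Zc3h13 thus had siCtrl values near day -2, and Alkbh5 had siCtrl values near the later stages. Rbm15, also a writer subunit, did not follow day -2, with 7 and 8 in siCtrl, 2 on day -2, and 2, 5, 10 and 4 later. Of the 19 members, 8 had more peaks in both siCtrl lists than on day -2 and 7 had fewer. Of all genes, 42.8% and 24% did.

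A smaller set of 302 regions was held by both siCtrl lists and by day 10 alone. Both siFTO lists held 36.1% of it, against 77.0% of the regions shared with day -2 alone and 59.9% of all regions in both siCtrl lists. Any part of the likeness of the siFTO lists to day -2 in this was not tested. The best of the 302 regions by fold lay in the coding sequence of Mmrn2, a matrix protein of vessels, with a fold of 16.17 and 15.6 in siCtrl and 84.28 on day 10.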
